A study of Mus musculus with 56 samples.

Results

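Gastrocnemius, the large calf muscle, was compared between 7 female and 7 male mice that both carried the label of a skeletal muscle knockout of HuR and were housed with a locked wheel. HuR, encoded by Elavl1, is an RNA-binding protein that stabilises many transcripts with AU-rich elements. The female group is called FH and the male group MH. Both groups were C57Bl/6 mice of 5 months of age on the same chow diet, and their wheels stayed locked over the period from 10 to 20 weeks in which other mice of the series ran. Both carried floxed Elavl1 alleles and a Cre driven by the Mlc1f promoter, which is active in skeletal myofibres, so Elavl1 in other cells of the tissue was not targeted. The members are the 14975 autosomal genes among the 15539 genes of the deposited table, in 14 of the 56 mice of the series. Of these genes, 13013 passed the filter on low counts over the 28 locked-wheel mice and were tested. The remaining 28 mice ran on open wheels, and the other locked mice were controls with floxed alleles and no Cre, namely 7 females (FC) and 7 males (MC).

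Skeletal muscle is built from fibre types. Fast fibres contract with fast myosins, fast troponins and the Atp2a1 calcium pump and draw largely on glycolysis, whereas slow fibres use the slow isoforms and Atp2a2 and draw largely on mitochondrial oxidation. Between the fibres lie fibro-adipogenic progenitors, which make collagen, together with adipocytes, macrophages, vessels and nerve. In bulk tissue, fewer cells of a type and less RNA per cell cannot be told apart, and this holds for each marker list given here.

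Values are counts per 1000000 (CPM) of a library total scaled by TMM (trimmed mean of M values), and log2 fold changes are FH minus MH, so that positive values are higher in females. A gene was called at an adjusted p of 0.05 or less in limma's test with voom weights, with the Benjamini-Hochberg adjustment over all genes tested. Total counts ran from 7889427 to 15963607 in FH mice and from 10330165 to 18394231 in MH mice. Counts of the targeted gene did not separate the labels. Elavl1 (chromosome 8, 4285382 to 4325413, minus strand, GRCm38) lay at 37.6 to 61.4 CPM in FH mice (median 47.2) and 44.8 to 57.4 in MH mice (median 49.5), against 38.3 to 47.6 CPM in FC and 41 to 60.4 CPM in MC mice. Its FH against MH difference was -0.07 on the log2 scale (SE 0.09, adjusted p = 0.652), so the genotype is given as labelled throughout. By quantitative PCR, the paper reports less Elavl1 mRNA in gastrocnemius of knockout mice than of controls. That assay and read counts over a gene are unlike measures. The sex labels held: Xist had 1073 to 2470 counts in FH and 0 to 12 in MH mice, and Ddx3y had 0 to 3 and 1079 to 1820.

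A few libraries stood apart. Hepatocyte markers averaged 5.61 on a log2(CPM + 0.5) scale in FH mouse 19, against 0.30 to 2.72 in the other 6 FH mice and 2.26 to 4.79 in MH mice. Neuron markers averaged 3.94 in MH mouse 24 and 4.91 in MH mouse 9, and at most 2.47 in the remaining 12 mice. FH mouse 34 had the highest fast fibre mean of its group. Counts with FH mouse 19 and MH mice 9 and 24 left out are given for some lists. Leaving out FH mouse 34 gave 16 coupling, 13 sarcomere, 11 glycolysis and 9 clock genes lower, against 12, 10, 8 and 7 otherwise. It gave 66 ribosomal protein, 5 tenocyte and 3 Schwann cell genes higher, against 60, 2 and 0 otherwise.

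Of the 13013 autosomal genes tested, 2258 (17.4%) were called, 1111 (8.54%) higher and 1147 (8.81%) lower in FH mice. With library totals in place of TMM the count was 2345, of which 1591 were higher and 754 lower, so the balance of directions depends on the scaling. None of the 183 called genes that the naming rule picked changed sign with DESeq2 size factors, upper-quartile factors or library totals, and with library totals 16 lost their call, among them Tnnt3, Cacna1s, Ache, Gys1, Cs, Atp5a1 and Tcap. The 7 FH values did not overlap the 7 MH values for 429 genes (3.3%), lying above them for 209 (1.61%) and below them for 220 (1.69%), and 422 (3.24%) of the 13013 genes were both called and free of overlap. Changes were mostly modest. The median called rise was 0.57 and the median called fall -0.44 on the log2 scale, and 364 called genes (189 higher, 175 lower) differed by 2-fold or more. Called genes were spread over all 19 autosomes, from 13.7% of genes tested on chromosome 8 to 22.3% on chromosome 10. Leaving out 1 mouse at a time gave 1838 calls without FH mouse 17 to 2638 without FH mouse 34, and leaving out FH mouse 19, MH mouse 9 and MH mouse 24 together gave 1749 (751 higher, 998 lower). Called genes also differed by transcript length: among the 2603 genes with the shortest transcripts 14.2% were higher and 5.19% lower, and among the 2603 with the longest 6.53% were higher and 14.9% lower. A length score per mouse, which compares levels of genes with long and short transcripts, ran from -0.22 to 0.11 in FH and from -0.06 to 0.21 in MH mice. With this score as a covariate 812 genes were called (348 higher, 464 lower).

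**Figure D1:**
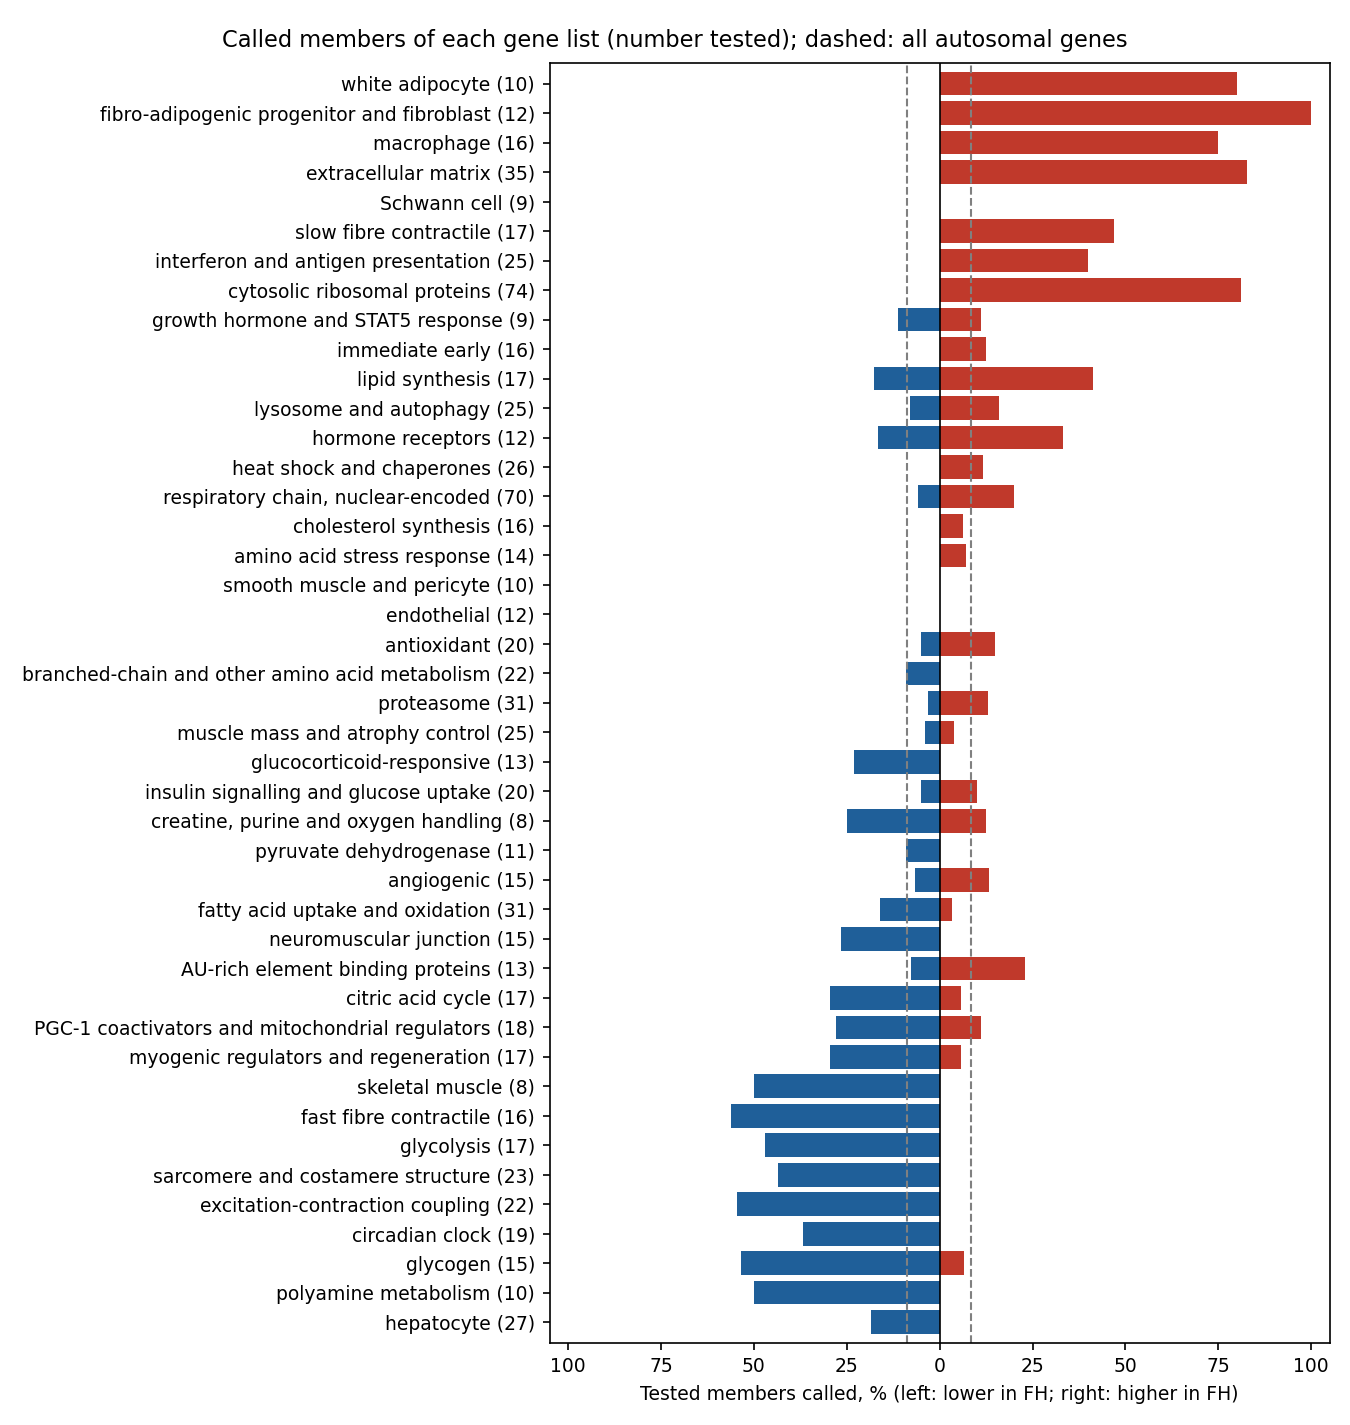
Share of the tested members of each gene list that were called lower (left, blue) or higher (right, red) in FH than in MH mice, in percent, for lists with 8 or more tested members; the number tested is in brackets and lists are ordered by median log2 fold change. The dashed lines mark the share among all autosomal genes, 8.81% lower and 8.54% higher, and the lists of fast fibre, coupling, glycogen and polyamine genes reach far to the left while matrix, fibroblast, adipocyte, macrophage and ribosomal lists reach far to the right.

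In polyamine metabolism, the 4 genes with the smallest adjusted p were more than 2-fold lower in FH mice. Polyamines are small positively charged molecules that bind RNA; ornithine decarboxylase (Odc1) makes putrescine, S-adenosylmethionine decarboxylase (Amd1) supplies the aminopropyl groups that turn it into spermidine and spermine, and spermine oxidase (Smox) turns spermine back into spermidine. Synthesis of polyamines is known to respond to androgens in mouse tissues. Of 10 autosomal genes of the list tested, 5 were lower in FH mice and 0 were higher, against 8.81% lower among all genes. For 4 of them FH mice lay below MH mice without overlap, against 1.69% of all genes. Amd2, 1 of these 4, may share reads with Amd1. The list median was -0.56, beside -0.01 for all autosomal genes.

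The starts of the 4 genes that did not overlap are shown because these genes moved together. Each window holds the 250 bases before and 50 bases after the RefSeq start on GRCm38.p6, 5′ to 3′ on the gene's strand, and capitals mark the GC box GGGCGG on either strand. Amd1 lies at chr10:40302139-40302438, minus strand, Amd2 at chr10:35711842-35712141, minus strand, Smox at chr2:131491612-131491911, plus strand and Odc1 at chr12:17544623-17544922, plus strand.
Amd1: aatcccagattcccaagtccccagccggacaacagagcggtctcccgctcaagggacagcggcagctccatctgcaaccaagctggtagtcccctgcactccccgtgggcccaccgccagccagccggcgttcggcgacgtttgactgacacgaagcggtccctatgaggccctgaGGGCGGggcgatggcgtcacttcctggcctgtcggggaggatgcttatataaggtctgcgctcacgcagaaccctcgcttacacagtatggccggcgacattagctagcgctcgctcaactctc
Amd2: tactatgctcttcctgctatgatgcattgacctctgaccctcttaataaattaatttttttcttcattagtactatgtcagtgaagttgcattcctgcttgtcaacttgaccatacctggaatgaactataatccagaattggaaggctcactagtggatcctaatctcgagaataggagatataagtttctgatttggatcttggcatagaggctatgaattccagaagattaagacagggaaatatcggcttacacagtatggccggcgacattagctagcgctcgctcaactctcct
Smox: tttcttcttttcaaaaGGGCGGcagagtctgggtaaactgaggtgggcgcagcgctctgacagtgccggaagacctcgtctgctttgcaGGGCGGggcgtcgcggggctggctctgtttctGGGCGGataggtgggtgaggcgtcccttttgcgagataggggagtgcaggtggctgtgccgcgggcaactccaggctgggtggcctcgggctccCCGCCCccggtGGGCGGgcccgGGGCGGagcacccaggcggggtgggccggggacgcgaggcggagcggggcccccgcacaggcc
Odc1: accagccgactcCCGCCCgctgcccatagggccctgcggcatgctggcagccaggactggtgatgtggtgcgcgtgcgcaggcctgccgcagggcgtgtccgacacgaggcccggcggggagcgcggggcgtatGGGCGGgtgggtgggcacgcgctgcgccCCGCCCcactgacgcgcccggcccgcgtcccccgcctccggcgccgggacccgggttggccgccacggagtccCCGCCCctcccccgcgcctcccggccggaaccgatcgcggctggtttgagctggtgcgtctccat

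The GC box stood 1 time in the Amd1 window, 6 times in Smox and 4 times in Odc1, and 0 times in Amd2; 35.7% of the 32851 promoters of the table hold it on either strand. The steroid receptor motif AGAACA, which 19% of promoters hold, the E-box CACGTG (7.15% of promoters) and the TATA motif TATAAA (13.6%) were searched on both strands and had 0 matches in the 4 windows. Only these exact letters were searched. The Amd1 window holds the related stretch tatataag, so 0 matches do not show that it lacks a TATA box.

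Amd1 ranged over 25.6 to 48 CPM in FH mice (median 35.6) and 122 to 482 in MH mice (median 209.6). Every FH mouse lay below every MH mouse (log2 fold change -2.70, SE 0.22, adjusted p = 2.07e-10), a 6.50-fold lower level in females with a 95% interval of 4.79 to 8.81. Smox ranged over 16.9 to 48.9 CPM in FH mice (median 24.4) and 83.6 to 365 in MH mice (median 109) (log2 fold change -2.16, SE 0.28, adjusted p = 2.98e-06). Its FH values formed a lower set of 4 mice at 16.9 to 24.4 CPM and a higher set of 3, mice 30, 31 and 34, at 44.7 to 48.9 CPM. Odc1 was 2.48-fold lower, at 2.42 to 5.23 CPM in FH mice (median 3.22) and 5.45 to 16 in MH mice (median 7.39) (log2 fold change -1.31, SE 0.26, adjusted p = 6.34e-04). Amd2, a near-identical copy of Amd1 with which it may share reads, lay at 0.604 to 3.58 CPM in FH mice (median 2.21) and 11.5 to 47.5 in MH mice (median 17.9), and its count is uncertain for that reason. MH mice 8 and 12 were the highest of their group for all 4 genes, with Amd1 at 482 and 410 CPM against 122 to 230 CPM in the other 5. Oaz1, the antizyme that marks ornithine decarboxylase for degradation, was also lower (-0.37, adjusted p = 0.0160). Srm, which makes spermidine, had a difference of 0.27, adjusted p = 0.270. Amd1, Amd2, Smox and Odc1 kept their call with each of the 28 mice left out in turn. With adipocyte or fibroblast markers as a covariate, Amd1, Amd2 and Smox kept theirs (Amd1 -2.13 and -2.30) and Odc1 did not (adjusted p = 0.285 and 0.650).

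**Figure D2:**
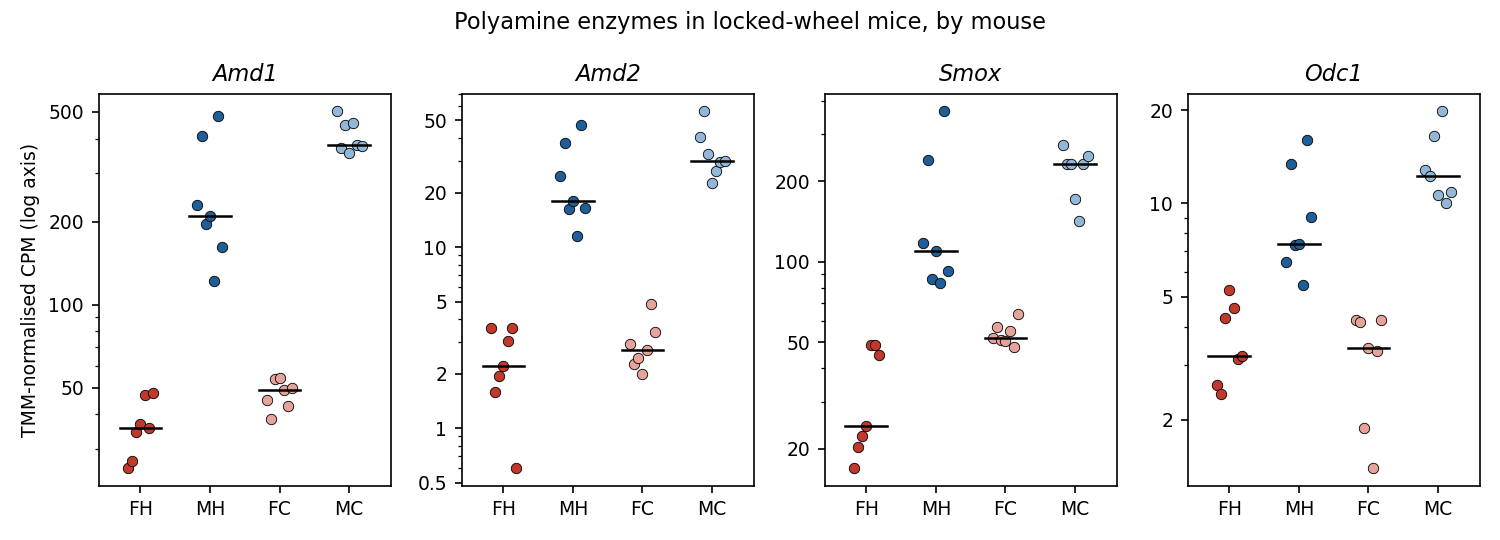
Level of Amd1, Amd2, Smox and Odc1 in each locked-wheel mouse (points, TMM-normalised CPM on a log axis; lines are group medians) for labelled knockout females (FH) and males (MH) and control females (FC) and males (MC). In all 4 genes the FH points lie below the MH points, and for Amd1 the medians are 35.6 and 209.6 CPM.

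Of 16 fast fibre genes, 9 were lower in FH mice (8.81% among all genes), 0 were higher and 7 did not pass. Their median was -0.21. Myh4, the fast myosin heavy chain of type IIB fibres and the most counted of all called genes, lay at 16125 to 34779.7 CPM in FH mice (median 19368) and 24109 to 36130.3 in MH mice (median 32147) (log2 fold change -0.53, SE 0.12, adjusted p = 0.00210). FH mice 13 and 34, at 27764 and 34779.7 CPM, reached into the MH range, and the other 5 FH mice lay below it. Casq1, the fast calcium-storage protein of the sarcoplasmic reticulum, did not overlap, at 692 to 940.2 CPM in FH mice (median 804) and 1018 to 1144 in MH mice (median 1039) (log2 fold change -0.39, SE 0.08, adjusted p = 6.84e-04). Atp2a1, the fast calcium pump, differed by -0.37 and Actn3, the fast Z-disc actinin, by -0.32. Thin filament genes moved less, with Tnnt3 at -0.22, Tnni2 at -0.20 and Tpm1 at -0.25. The remaining fast myosins did not pass: Myh1 of type IIX fibres differed by -0.18, adjusted p = 0.255, and Myh2 of type IIA fibres by 0.01, adjusted p = 0.982. Myl1, whose promoter drives the Cre, differed by 0.13, adjusted p = 0.779. Without 1 mouse at a time, 6 (without FH mouse 14) to 10 (without MH mouse 24) fast genes were lower. With library totals 6 were lower and 1 higher, and with the length score as a covariate 2 were lower.

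Of 17 slow fibre genes, 8 were higher in FH mice (8.54% among all genes), 0 were lower and 9 did not pass. Their median was 0.50. Tnni1, slow troponin I, lay at 73.3 to 134 CPM in FH mice (median 93.2) and 30.6 to 103 in MH mice (median 49.6) (log2 fold change 0.78, SE 0.19, adjusted p = 0.00515). Tnnt1, slow troponin T, lay at 177 to 367 CPM in FH mice (median 264) and 81 to 278 in MH mice (median 141) (log2 fold change 0.82, SE 0.22, adjusted p = 0.00780). The groups overlapped for both. Sln, the sarcolipin that inhibits the calcium pump, rose by 0.81, Myl2 by 0.73, Tnnc1 by 0.62, Tpm3 by 0.60, Casq2 by 0.50 and Atp2a2 by 0.46. Myh7, the slow myosin heavy chain, ran from 92.9 to 158 CPM in FH mice (median 98.8) and 40.1 to 143 in MH mice (median 69.1) and missed the threshold (adjusted p = 0.0592).

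The slow list mean ran from 6.40 to 6.78 on the log2(CPM + 0.5) scale in FH mice, while MH mice fell into a set of 4 at 5.65 to 6.05 and a set of 3, mice 15, 23 and 24, at 6.57 to 6.80. The same 3 MH mice had the highest adipocyte marker means of their group, 4.07 to 4.64 against 2.59 to 3.26. With the adipocyte mean as a covariate 0 slow genes were called and their median was -0.12, and 0 fast genes were called with a median of -0.10. With fibroblast markers as a covariate 0 slow and 0 fast genes were called, and with the length score 5 slow genes were higher. Without FH mouse 17, 3 slow genes were called, and without MH mouse 15, 10.

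**Figure D3:**
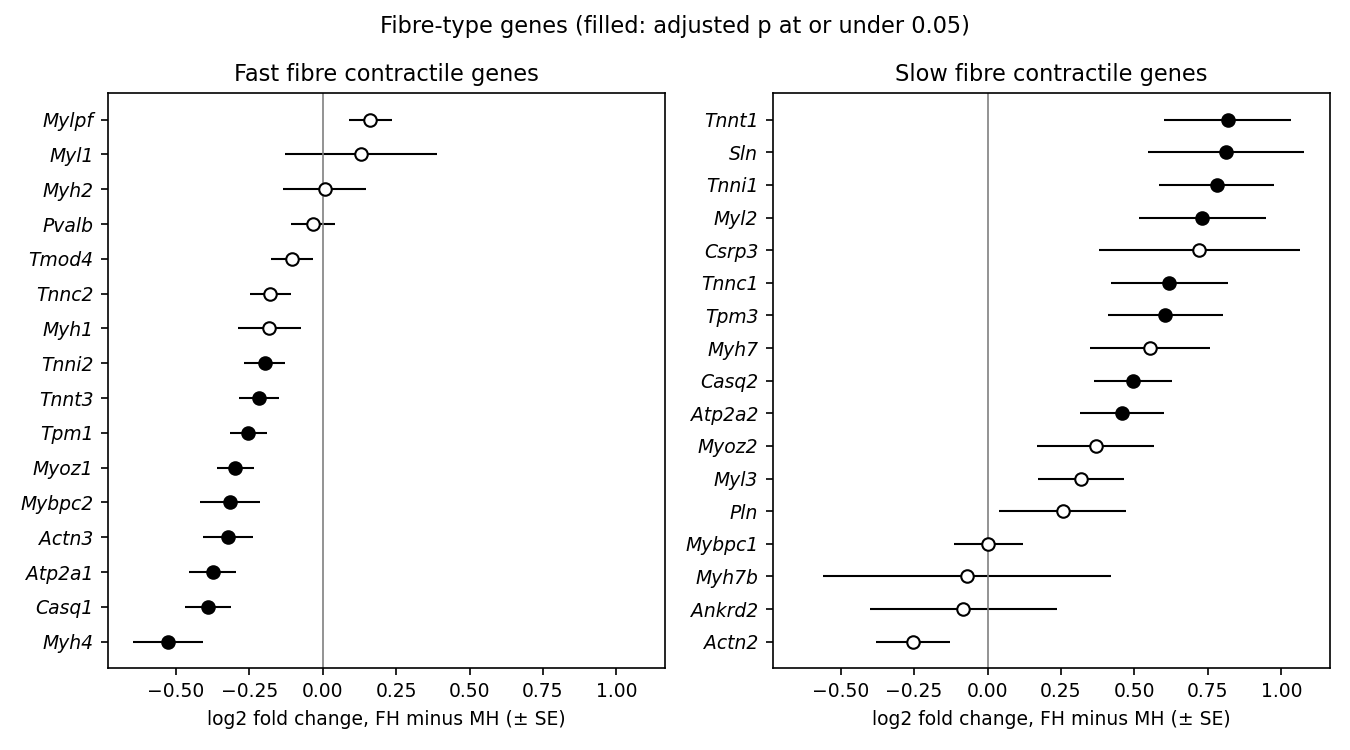
Log2 fold change of FH minus MH (points, with bars of 1 standard error) for the 16 fast and 17 slow fibre genes, ordered by size; filled points passed an adjusted p of 0.05. Myh4 at -0.53 is the lowest fast gene, and Tnnt1 at 0.82 the highest slow gene.

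Of 23 sarcomere and costamere genes, 10 were lower in FH mice (8.81% among all genes), 0 were higher and 13 did not pass. With the length score as a covariate 6 were lower, with adipocyte markers 3 and with fibroblast markers 1. Ttn, the titin spring that spans the sarcomere, lay at 9140.3 to 30671 CPM in FH mice (median 13892) and 26704 to 35775 in MH mice (median 32684) (log2 fold change -0.95, SE 0.19, adjusted p = 8.71e-04). FH mice 13 and 34 lay within the MH range, at 28685 and 30671 CPM, and the other 5 were at or below 16693 CPM. Synm, the intermediate filament protein synemin, did not overlap, at 262 to 428 CPM in FH mice (median 372) and 517 to 834 in MH mice (median 689) (log2 fold change -0.91, SE 0.10, adjusted p = 1.40e-07). Sgca of the dystrophin complex also did not overlap (-0.44). Neb, Cmya5, Myom1, Myom2, Des and Tcap were lower by 0.56, 0.64, 0.41, 0.47, 0.47 and 0.33. Ttn and Neb are among the longest transcripts of muscle, and with the length score as a covariate Ttn differed by -0.30 (adjusted p = 0.253) while Synm kept its call (-0.78).

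Excitation-contraction coupling joins the action potential to calcium release. Of its 22 genes, 12 were lower (8.81% among all genes) and 0 higher. Ryr1, the calcium release channel, lay at 648 to 1214 CPM in FH mice (median 754) and 1209.8 to 1532 in MH mice (median 1466) (log2 fold change -0.76, SE 0.12, adjusted p = 3.99e-05). The groups overlapped by 1 FH mouse, mouse 13, which lay just above the lowest MH mouse. Bin1, which shapes the T-tubule, did not overlap, at 289.9 to 358 CPM in FH mice (median 296) and 401 to 491 in MH mice (median 438) (log2 fold change -0.53, SE 0.06, adjusted p = 5.86e-07). Srl, a calcium-binding protein of the reticulum, differed by -0.50, Jph1 by -0.43, Stim1 by -0.42, and the muscle chloride channel Clcn1 by -0.46. Cacna1s, the voltage sensor, was lower by 0.28. With FH mouse 19 and MH mice 9 and 24 left out 13 genes of the list were lower, and with the length score as a covariate 5. With adipocyte markers as a covariate 1 gene of the list, Bin1, was lower, and likewise with fibroblast markers; Bin1 differed by -0.47, -0.42 and -0.48 with adipocyte, fibroblast and length covariates.

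At the neuromuscular junction 4 of 15 genes were lower (8.81% among all genes). With library totals 2 were lower, with adipocyte markers as a covariate 3, with the length score 1 and with fibroblast markers 0. Musk, the kinase that assembles acetylcholine receptors under the nerve, lay at 4.12 to 13.2 CPM in FH mice (median 8.37) and 16.3 to 28.8 in MH mice (median 21.9) without overlap (log2 fold change -1.43, SE 0.20, adjusted p = 6.28e-06). Chrne, the adult receptor subunit, was -0.81 and Ache, which breaks down acetylcholine, -0.68. Chrna1, the muscle receptor alpha subunit, differed by 0.05, adjusted p = 0.873.

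Of 17 autosomal glycolysis genes, 8 were lower in FH mice (8.81% among all genes), 0 were higher and 9 did not pass. Their median was -0.24. Hk2, the muscle hexokinase, did not overlap, at 183 to 239 CPM in FH mice (median 208) and 257 to 285 in MH mice (median 271) (log2 fold change -0.36, SE 0.07, adjusted p = 7.04e-04). Gpi1, the next enzyme, lay at 202 to 332 CPM in FH mice (median 216) and 294 to 382 in MH mice (median 337) (log2 fold change -0.53, SE 0.09, adjusted p = 8.54e-05). Pfkm, the committing step, differed by -0.37, Gapdh by -0.47 and Pkm by -0.34. Of 15 autosomal glycogen genes, 8 were lower and 1, Ppp1r3d, higher. Phkg1, the catalytic subunit of phosphorylase kinase, lay at 97.6 to 136 CPM in FH mice (median 102) and 134 to 177 in MH mice (median 145) (log2 fold change -0.49, SE 0.07, adjusted p = 1.96e-05). Pygm, the muscle glycogen phosphorylase, differed by -0.40 and glycogen synthase Gys1 by -0.36. With adipocyte markers as a covariate 0 glycolysis genes and 2 glycogen genes were lower, with fibroblast markers 0 and 0, with the length score 5 and 3, and with library totals 5 and 6.

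Of 8 genes for creatine, purine and oxygen handling 2 were lower and 1 higher, beside 8.81% and 8.54% among all genes. Ckm, the muscle creatine kinase, differed by -0.27 and Ak1, adenylate kinase, by -0.40, both without overlap. Car3, a carbonic anhydrase abundant in slow fibres and adipocytes, was higher (log2 fold change 0.58, SE 0.15, adjusted p = 0.00618). Of 17 lipid synthesis genes, 7 were higher and 3 lower, beside 8.54% and 8.81% among all genes. With FH mouse 19 and MH mice 9 and 24 left out 2 of the 17 were higher and 3 lower. With adipocyte or fibroblast markers as a covariate 0 of these were called, and with the length score 1 was higher and 2 lower. Fasn rose by 1.23, Acly, which supplies acetyl-CoA, by 0.87 and Acaca by 0.78. The lipogenic regulator Srebf1 was lower, at 1.54 to 20.2 CPM in FH mice (median 14.1) and 18.7 to 65.2 in MH mice (median 28) (log2 fold change -1.55, SE 0.36, adjusted p = 0.00287), as were Lpin1 (-0.52) and Me1 (-0.38). Of 31 autosomal fatty acid genes, 5 were lower and 1, Acot13, higher, against 8.81% lower and 8.54% higher among all genes. Their median was -0.14, beside -0.01 for all autosomal genes. Ucp3, a mitochondrial carrier raised by fasting, lay at 13.3 to 30.7 CPM in FH mice (median 17.2) and 22 to 53.4 in MH mice (median 41.1) (log2 fold change -0.92, SE 0.22, adjusted p = 0.00332), and Acacb, which blocks fatty acid entry to mitochondria, differed by -0.49.

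Mitochondrial genes did not move as one group. Of 70 autosomal respiratory chain genes, 14 were higher and 4 lower, with a median of 0.06. Among all genes 8.54% were higher and 8.81% lower, so the share lower in this list was under that of all genes. Those higher included short transcripts such as Cox6c (0.37), Atp5e (0.34) and Ndufa2 (0.25), and those lower Uqcrc1 (-0.29) and Atp5a1 (-0.20). With the length score as a covariate 0 were higher and 2 lower, and with FH mouse 19 and MH mice 9 and 24 left out 5 were higher and 4 lower. Leaving out 1 mouse moved the higher count from 9 (without FH mouse 14) to 23 (without FH mouse 13). Of 17 citric acid cycle genes, 5 were lower (8.81% among all genes), Cs (-0.33) among them, and Mdh1 was higher (0.44). With library totals 1 of this list was lower and 2 were higher, so the direction of these counts turns with the scaling. The list median was -0.15 with TMM and -0.07 with library totals. That of all autosomal genes was -0.01 and 0.06, so the list lay below all genes in both scalings. With adipocyte markers as a covariate 0 of the list were called. The coactivators Ppargc1a and Ppargc1b, which drive mitochondrial genes, were both lower. Ppargc1a lay at 31.7 to 40.4 CPM in FH mice (median 35.4) and 44.2 to 64.4 in MH mice (median 45.6) without overlap (log2 fold change -0.45, SE 0.10, adjusted p = 0.00247), and Ppargc1b differed by -0.47. Of 18 genes of that list 5 were lower and 2 higher, beside 8.81% and 8.54% among all genes. The kinase subunits Prkaa2 (-0.41) and Prkag3 (-0.84), which sense a lack of energy, were lower, while Prkaa1 (0.42) and the nuclear receptor Esrrg (0.54) were higher.

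All 12 fibro-adipogenic progenitor and fibroblast markers were called higher in FH mice (median 0.88), 6 of them without overlap, against 8.54% higher among all genes. Pdgfra, the surface receptor that defines the progenitors, lay at 19.9 to 37.5 CPM in FH mice (median 30.5) and 14.7 to 21.1 in MH mice (median 19.4) (log2 fold change 0.74, SE 0.14, adjusted p = 3.39e-04). Ly6a, the stem cell antigen Sca-1, lay at 56.3 to 89.9 CPM in FH mice (median 77.5) and 37.8 to 56.3 in MH mice (median 44.3) (log2 fold change 0.79, SE 0.11, adjusted p = 6.98e-06), and the groups abutted without overlap. Dcn, the matrix proteoglycan decorin, differed by 0.68, Clec3b by 0.90, Mfap5 by 1.09 and Pi16 by 1.36. Each FH mouse had a marker mean of 6.33 to 6.82 on the log2(CPM + 0.5) scale and each MH mouse one of 5.10 to 5.95, so the groups did not overlap. With the length score as a covariate 6 of the 12 were called (median 0.62), and with adipocyte markers 1 (0.51).

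Of 35 extracellular matrix genes, 29 were higher (8.54% among all genes) and 0 lower, with a median of 0.68. Dcn, Lum, Col1a1 and Col3a1 are also among the fibroblast markers. The fibrillar collagen Col1a1 lay at 244 to 491 CPM in FH mice (median 409) and 117 to 271 in MH mice (median 204) (log2 fold change 0.86, SE 0.22, adjusted p = 0.00682). Tnc, the tenascin of tendon and remodelling matrix, lay at 13.2 to 26.6 CPM in FH mice (median 22) and 5.49 to 12.5 in MH mice (median 6.54) without overlap (log2 fold change 1.42, SE 0.23, adjusted p = 4.25e-05). Lox, which crosslinks collagen, rose by 1.30, Thbs1 by 1.67, Col14a1 by 1.48 and Mmp3, a matrix protease, by 3.18. The basement membrane collagens Col4a1 (0.19, adjusted p = 0.0803) and Col4a2 (0.12, adjusted p = 0.484) did not pass. With the length score as a covariate 10 matrix genes were higher, and with adipocyte markers 1. With the fibroblast marker mean as a covariate 0 matrix genes were called and their median was -0.01; this covariate left 103 genes called in all (31 higher, 72 lower). Of 7 tenocyte markers, Fmod (1.33) and Chad (2.17) were higher (8.54% among all genes), and Scx, the defining tendon factor, had 0.43, adjusted p = 0.211.

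Of 10 white adipocyte markers 8 were higher in FH mice (8.54% among all genes) and 0 lower, with a median of 1.76. Adipoq, the hormone adiponectin, lay at 25.2 to 70.5 CPM in FH mice (median 38.5) and 1.99 to 31.6 in MH mice (median 5.67) (log2 fold change 2.45, SE 0.39, adjusted p = 4.91e-05). Cfd, the secreted protease adipsin, lay at 82.1 to 249.7 CPM in FH mice (median 141) and 7.14 to 85.1 in MH mice (median 21.2) (log2 fold change 2.51, SE 0.37, adjusted p = 1.52e-05). Retn, the hormone resistin, did not overlap, at 10.1 to 28.1 CPM in FH mice (median 20.9) and 0.927 to 9.96 in MH mice (median 3.49) (log2 fold change 2.68, SE 0.37, adjusted p = 8.31e-06). Lep, the hormone leptin, passed narrowly (1.53, adjusted p = 0.0470) and in 8 of 28 fits with a mouse left out. The list means ran from 4.35 to 5.47 in FH and from 2.59 to 4.64 in MH mice. With their mean as a covariate, 288 of all autosomal genes were called, 101 higher and 187 lower. Of 5 brown adipocyte markers tested Slc36a2 (1.96) and Dio2 (0.83) were higher and Elovl3 lower, beside 8.54% higher and 8.81% lower among all genes.

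Of 16 macrophage markers 12 were higher and 0 lower in FH mice (median 0.81), against 8.54% higher among all genes. None was called with the length score (median 0.41), adipocyte markers (0.15) or fibroblast markers (-0.32) as a covariate. Mrc1, the mannose receptor of resident macrophages, lay at 16.1 to 27.2 CPM in FH mice (median 22.4) and 7.01 to 18.9 in MH mice (median 12.6) (log2 fold change 0.87, SE 0.19, adjusted p = 0.00136), and the complement genes C1qa, C1qb and C1qc differed by 0.90, 1.05 and 0.79. Adgre1, which encodes F4/80, had 0.80, adjusted p = 0.129 and Cd68 0.27, adjusted p = 0.667. Without MH mouse 9 the count was 6, and with FH mouse 19, MH mouse 9 and MH mouse 24 all left out it was 5. All 3 mice carry high levels of another cell type's markers, and the part of these in the macrophage result was not tested. Of 25 interferon and antigen presentation genes 10 were higher (8.54% among all genes) and 0 lower. With the length score 1 was higher, with adipocyte markers 0 and with fibroblast markers 0. B2m, the light chain of class I molecules, lay at 387 to 499 CPM in FH mice (median 429) and 264 to 349.8 in MH mice (median 298) without overlap (log2 fold change 0.54, SE 0.10, adjusted p = 2.14e-04), and the class II chains H2-Aa and H2-Ab1 rose by 1.03 and 0.95.

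Other cell types gave few or no calls. Endothelial (12 tested), smooth muscle and pericyte (10), Schwann cell (9), neuron (7), neutrophil (3) and lymphocyte (2) markers had 0 calls in either direction with all mice. Of 9 Schwann cell markers 8 had positive and 1 negative fold changes (median 0.57), and 3 were called higher without FH mouse 34. Without FH mouse 13, 1 smooth muscle and pericyte marker was higher, and without MH mouse 24, 1 lymphocyte marker was lower. Pecam1 of endothelium lay at 48.2 to 61.7 CPM in FH mice (median 55.9) and 42 to 60.3 in MH mice (median 51.8) (adjusted p = 0.430). Of 5 erythroid genes 3 were higher (8.54% among all genes), Hbb-bs (0.82) among them, which may share reads with its near copy Hbb-bt, and 0 with FH mouse 19 and MH mice 9 and 24 left out. Of 6 satellite cell markers Chodl (0.63) and Vcam1 (0.68) were higher (8.54% among all genes), and Pax7, which defines the cells, had -0.03, adjusted p = 0.950. Of 8 general skeletal muscle markers 4 were lower (8.81% among all genes), with list means of 12.53 to 12.84 in FH and 12.64 to 12.87 in MH mice. Of 27 hepatocyte markers 5 were lower (8.81% among all genes), with Alb at 2.95 to 755 CPM in FH and 47.0 to 346 in MH mice, and the count ran from 1 to 16 with 1 mouse left out. Of the hepatocyte set, leaving out FH mouse 17 gave 1 and leaving out FC mouse 15, which enters the shared spread, gave 16. Of 7 pancreatic islet markers 3 were listed and 0 passed the filter. None of the 8 markers of the pancreatic acinus was in the deposited table. Of 7 keratinocyte markers 1 passed the filter, with 0 calls.

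**Figure D4:**
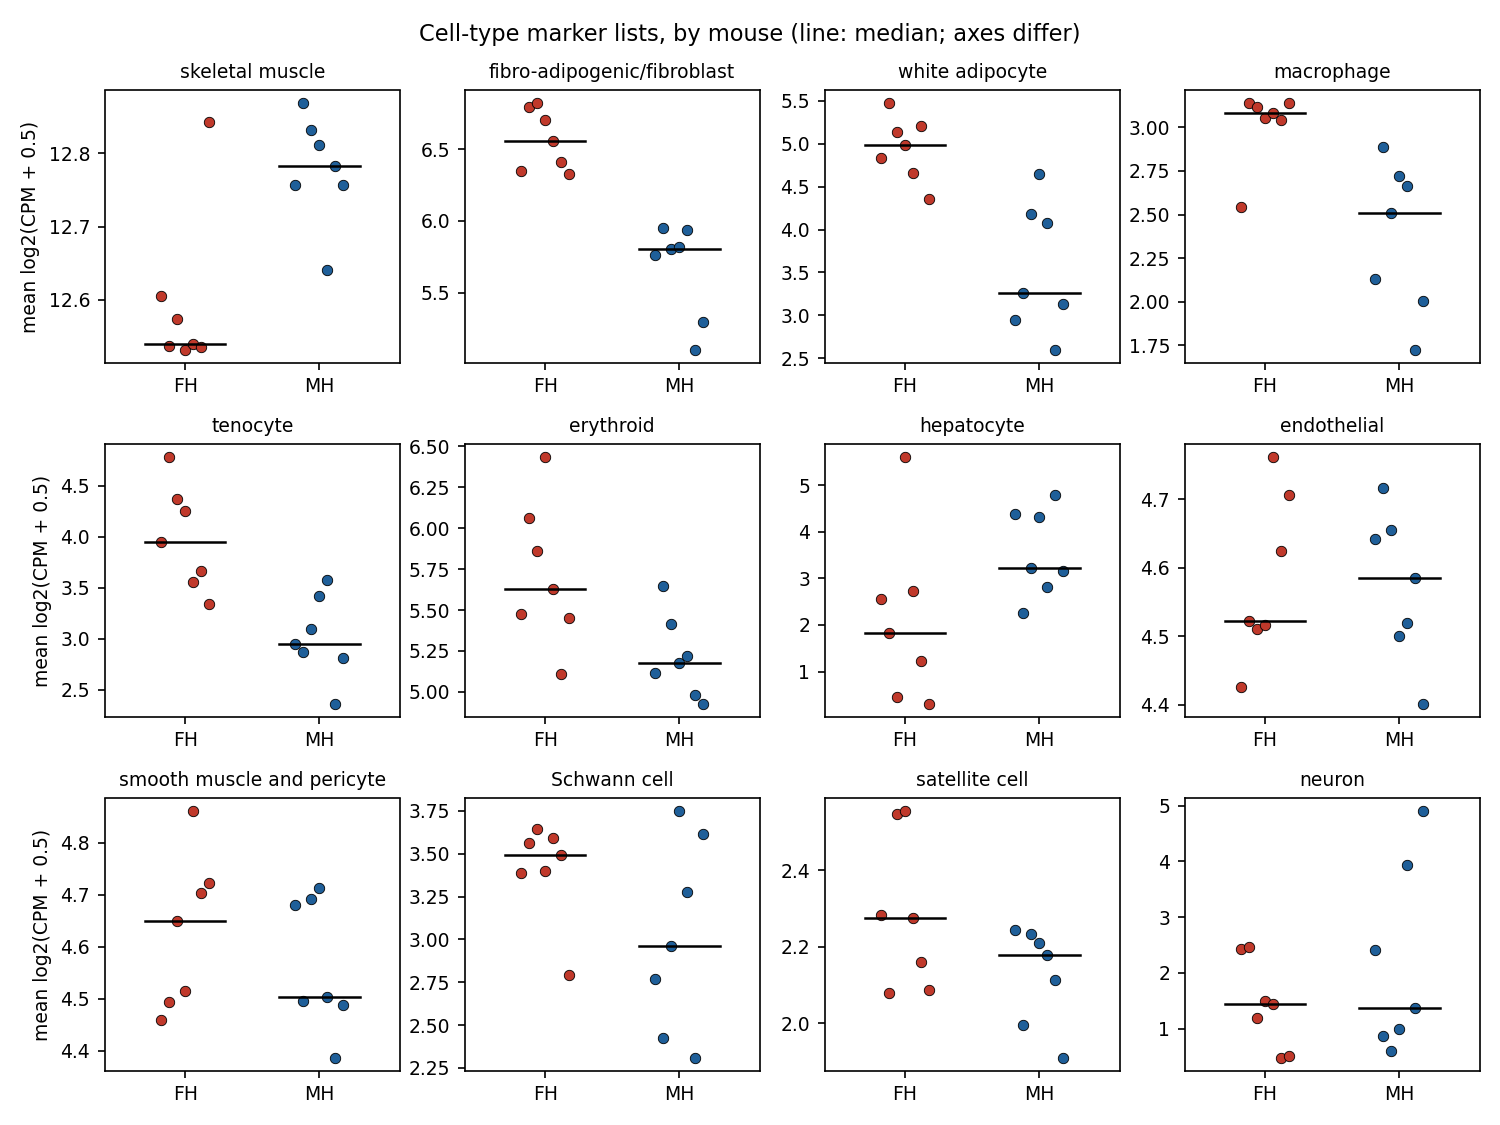
Mean log2(CPM + 0.5) of the markers of 12 cell types in each FH (red) and MH (blue) mouse, with a line at the group median; each panel has its own axis. The fibro-adipogenic panel separates the groups (6.33 to 6.82 against 5.10 to 5.95), the endothelial panel does not, and FH mouse 19 at 5.61 stands above its group for hepatocyte markers.

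Of 74 cytosolic ribosomal protein genes 60 were higher in FH mice and 0 lower, 16 without overlap, with a median of 0.37. Among all genes 8.54% were higher, and 1.61% lay above MH mice without overlap. Rpl26 lay at 213 to 264 CPM in FH mice (median 235) and 128 to 190.2 in MH mice (median 145) (log2 fold change 0.66, SE 0.07, adjusted p = 3.07e-07), Rpl31 at 226 to 294 CPM in FH mice (median 250.01) and 163 to 200.2 in MH mice (median 169) and Rps21 at 423 to 592 CPM in FH mice (median 523) and 338 to 393 in MH mice (median 364), none with overlap. These are short transcripts with many processed copies in the genome, so reads may be shared. With the length score as a covariate 25 were higher (median 0.22), with the adipocyte markers 22, and with the fibroblast markers 1. With FH mouse 19 and MH mice 9 and 24 left out 45 were higher.

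Among regulators, 7 of 19 circadian clock genes were lower (8.81% among all genes) and 0 higher. With library totals 5 were lower and 1 higher, with the length score as a covariate 1 was lower, and with adipocyte or fibroblast markers 0. Per2 differed by -1.25, Ciart by -1.18, Per3 by -0.78, and the output factor Hlf by -0.75. Arntl (-0.06, adjusted p = 0.918) and Clock (0.13, adjusted p = 0.388), the positive arm of the loop, did not pass. The time of tissue collection is not given in the sources used here. Of 12 autosomal hormone receptors tested, 4 were higher and 2 lower, beside 8.54% and 8.81% among all genes. Nr3c1, the glucocorticoid receptor, rose by 0.38 and Lepr by 1.38, while Esr1, the oestrogen receptor alpha, did not differ beyond its error (0.00, 95% interval -0.24 to 0.24). Socs2, a growth hormone feedback gene, rose by 1.40 and Bcl6 was lower (-0.66). Sesn1, a stress-induced inhibitor of mTORC1, was the clearest of 25 muscle mass genes, at 15.9 to 23.2 CPM in FH mice (median 20.4) and 6.13 to 11.8 in MH mice (median 8.96) without overlap (log2 fold change 1.15, SE 0.13, adjusted p = 2.03e-07). The atrophy ligases Trim63 (-0.23, adjusted p = 0.305) and Fbxo32 (-0.17, adjusted p = 0.667) did not pass. Gpx3, a secreted peroxidase, rose by 1.10, Angpt1 by 0.79 and the imprinted adaptor Grb10 by 0.79, all without overlap, and Vegfa was lower (-0.55). Sgk1 was lower by 0.78. Of 17 myogenic regulators 5 were lower and 1 higher, beside 8.81% and 8.54% among all genes. Mef2d, a myogenic factor, was lower without overlap (-0.43), and Myog was higher (0.63).

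Among all genes 8.54% were higher and 8.81% lower. Several lists had called shares near or below this background in both directions: insulin signalling (2 higher and 1 lower of 20), proteasome (4 and 1 of 31), heat shock (3 and 0 of 26), muscle mass (1 and 1 of 25), branched-chain and other amino acid metabolism (0 and 2 of 22), cholesterol synthesis (1 and 0 of 16) and amino acid stress (1 and 0 of 14). Small counts were also found for lysosome and autophagy (4 and 2 of 25), antioxidant (3 and 1 of 20), immediate early (2 and 0 of 16), angiogenic (2 and 1 of 15) and growth hormone response genes (1 and 1 of 9). Pyruvate dehydrogenase had 1 lower of 11, Pdk2 (-0.35), and glucocorticoid-responsive genes 3 lower of 13. Of 13 genes listed as AU-rich element binding proteins, of several families, Celf1 was lower (-0.35) and Zfp36l1, Zfp36l2 and Ptbp1 were higher (0.29, 0.60 and 0.64). Elavl1 (adjusted p = 0.652) and its relative Elavl2 (adjusted p = 0.938) were not called.

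The genes with the largest rises without overlap included signals and their receptors as well as matrix genes. Oxtr, the oxytocin receptor, lay at 0.470 to 3.97 CPM in FH mice (median 1.35) and 0 to 0.402 in MH mice (median 0.182) (log2 fold change 3.24, SE 0.91, adjusted p = 0.0121). Adrb3, the beta-3 adrenergic receptor of adipocytes, lay at 1.68 to 3.93 CPM in FH mice (median 2.93) and 0 to 1.0 in MH mice (median 0.482) (log2 fold change 2.65, SE 0.49, adjusted p = 2.95e-04). Sfrp4, a secreted Wnt antagonist, rose by 2.70, Stc2, a secreted glycoprotein, by 2.30, Acvr1c by 1.94 and Smoc1 by 1.88. Actc1, the cardiac actin that fetal muscle also makes, was the most counted of the 10, at 94.6 to 476 CPM in FH mice (median 187) and 23.4 to 92.9 in MH mice (median 41.5) (log2 fold change 2.08, SE 0.30, adjusted p = 1.19e-05). It kept its call with adipocyte markers (2.76) and with fibroblast markers (2.54) as a covariate.

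Of the 10 largest falls, several are genes of liver. Serpina1e lay at 0.0644 to 4.83 CPM in FH mice (median 0.726) and 12.6 to 67.2 in MH mice (median 26.5). Cyp2d9, Cyp4a12a, Elovl3 and Mup11, of liver gene families that differ by sex, were also among them. Hepatocyte marker means were 0.30 to 5.61 in FH and 2.26 to 4.79 in MH mice. With these markers as a covariate 2040 of all autosomal genes were called (1006 higher, 1034 lower). The values of the liver genes in that fit are not reported here, and the cause of their fall was not tested. Cyp4a12a had 0 counts in all FH mice and 233 in MH mice, at least 70.3-fold higher in MH against a floor of 3 counts over the group. Slc15a5, a member of the peptide transporter family, had 3 counts over the 7 FH mice and 509 over the 7 MH mice, a ratio of 153 (95% counting interval 52.2 to 747), with every MH mouse at 2.00 to 12.3 CPM. Slc30a2, a zinc transporter, lay at 0 to 0.612 CPM in FH mice (median 0.363) and 2.06 to 9.27 in MH mice (median 4.02) (log2 fold change -4.09, SE 0.78, adjusted p = 4.32e-04). Tmem132b (-3.75), the potassium channel subunit Kcnf1 (-3.50) and Irx3os (-4.28), an RNA antisense to Irx3 whose reads cannot be told apart from it if counting ignored strand, were the others. The largest changes among genes with predicted names were A730020M07Rik (1.90) and 1700001O22Rik (-4.01).

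The same sex comparison in locked controls, FC minus MC, called 2551 of the 13013 genes (19.6%), 1251 (9.61%) higher and 1300 (9.99%) lower in FC mice. Both comparisons came from 1 fit and used different mice. Of the 2258 genes called in FH against MH, 1456 were called with the same sign in FC against MC, 802 were not called there and 0 were called with the opposite sign. A difference of the sex difference between genotypes, tested as an interaction, was called for 0 genes by limma, edgeR or DESeq2, with 896 (6.89%), 1029 and 965 genes at an unadjusted p under 0.05. So no gene can be named as differing by sex in 1 genotype alone. Side by side, Amd1 differed by -2.70 in the labelled knockouts and -3.11 in controls, Myh4 by -0.53 and -0.50, Tnnt1 by 0.82 and 0.92, and Col1a1 by 0.86 and 1.38. Among lists, glycolysis had 2 higher and 4 lower in controls with a median of -0.03, and the sarcomere list 0 higher and 12 lower (-0.48). Hepatocyte markers had 3 higher and 0 lower in FC. For Ucp3 the differences were -0.92 and 0.09 (adjusted p of the interaction = 0.473).

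**Figure D5:**
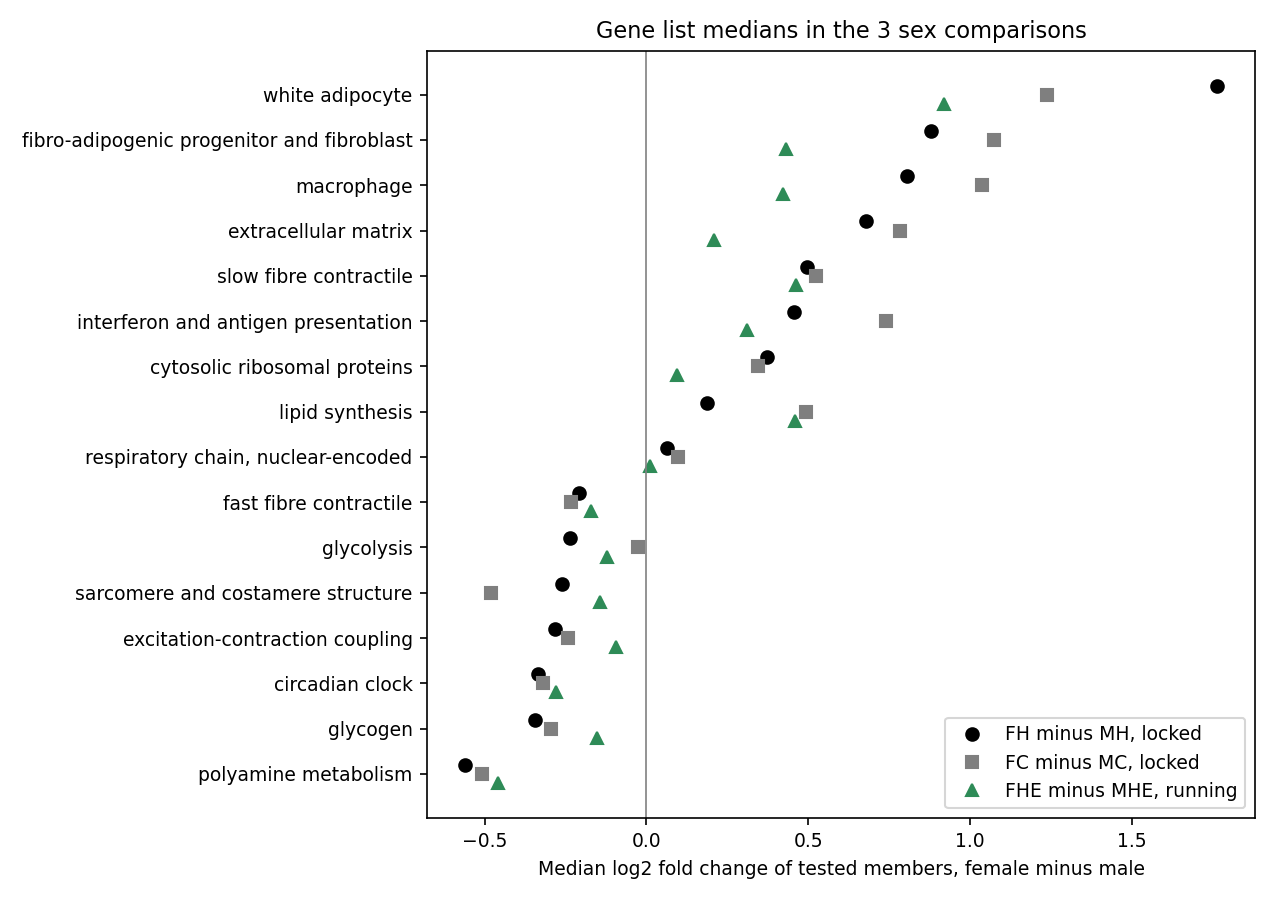
Median log2 fold change, female minus male, of the tested members of 16 gene lists in labelled knockouts with a locked wheel (circles), controls with a locked wheel (squares) and labelled knockouts with a running wheel (triangles). The polyamine medians lie close together at -0.56, -0.51 and -0.46, and the extracellular matrix median is 0.68, 0.78 and 0.21.

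In labelled knockouts with a running wheel, 7 females (FHE) and 7 males (MHE) fitted with all 56 mice, 765 of 13813 autosomal genes were called (5.54%), 315 (2.28%) higher and 450 (3.26%) lower in FHE mice, against 2674 (19.4%) for FH and MH in the same fit. The difference between the sex differences, locked minus running, was called for 185 genes (1.34%), 87 (0.63%) with a higher and 98 (0.709%) with a lower value in locked mice. Among the 5 smallest adjusted p each way were Phkg1, -0.58 (adjusted p = 0.00260), Camk2b, a calcium-dependent kinase, -0.70 (adjusted p = 0.00260), Ppargc1b, -0.74 (adjusted p = 0.00260), and Cygb, the globin of fibroblasts, 0.60 (adjusted p = 0.00759). Phkg1 differed by -0.49 between FH and MH and by 0.08 between FHE and MHE mice. Extracellular matrix genes had 6 higher and 0 lower in runners, and ribosomal protein genes 7 higher and 0 lower. Of the 10 polyamine genes 5 were lower there, Amd1 by 2.49 and Smox by 2.40, and slow fibre genes had 6 higher and 2 lower.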

How the data were processed

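Gastrocnemius RNA of 56 mice was sequenced, and the authors deposited 1 table of raw read counts per gene, with no normalization and with rarely counted genes already removed. The labels name a 3′ tag kit, the study's methods a stranded total RNA kit after ribosomal RNA depletion, so how transcript length acts on the counts is not settled. The submitters' processing notes name GRCm38/mm10, R 4.0.3 and edgeR 3.38.4. The aligner and counter are not given in the sources used here. Gene positions and transcript lengths are of GENCODE for GRCm38.

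Counts of the 28 locked-wheel mice were filtered with filterByExpr, scaled by TMM (edgeR 4.0.16) and fitted with voom and limma 3.58.1 in R 4.3.3, with a mean per group and no covariate. P-values were adjusted by Benjamini-Hochberg over all 13486 genes tested, sex chromosomes included, and only autosomal genes were then counted. The comparison of locked with running mice used all 56 mice. Scripts were tested on simulated data. Labels give each mouse its own number and group, and nothing on litters or extraction, so p-values measure the spread between these mice. Pairs of libraries within a group differed by 7.52 to 49.8 times the chi-square of counting noise per degree of freedom, so no library was counted as a repeat.

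The genes, lists and tests were chosen with earlier results of these data known, and counts over lists are descriptions. Genes named are the 10 largest rises and falls without overlap and with a mean of 10 counts or more, the 5 most counted called genes each way, up to 3 called members each way and the first 2 members of each list, the 5 smallest adjusted p each way of an interaction, and Elavl1. Other list members were named after their values were seen, and some genes that the rule picks are not reported here. Alternatives were edgeR's quasi-likelihood test, DESeq2 1.42.0, other scalings, filters, weights, marker and length covariates, a replicate block and the omission of mice. The covariates for fibroblast markers and length and the joint omission of FH mouse 19 and MH mice 9 and 24 were chosen after seeing the data. Sequences were taken from RefSeq windows on GRCm38.p6, which matched 4 of 4 genes looked up.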

Additional observations from a re-analysis of the deposited data

Results flagged for a closer look

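Of 76 groups of 7 mice looked at, each a marker list mean or a gene with one of the largest changes, 5 held a mouse whose gap to its neighbour was over 0.568 of the group's range, and chance gives about 1 in 20. FH mouse 34 accounted for 4 of the 5. Its skeletal muscle marker mean was 12.84, above the next FH mouse at 12.61, and its Schwann cell mean was 2.79, below the next at 3.39, both as log2(CPM + 0.5). On the same scale its level of Acvr1c, an activin-type receptor, was 2.00 against 2.65 in the next mouse. Its level of Elovl3, which elongates fatty acids in brown fat and liver, was -0.15, with the remaining 6 FH mice at -1, the value of a count of 0. Where the other 6 have no counts, any count in 1 mouse is flagged, so the rate of 1 in 20 does not apply to Elovl3. FH mouse 13 had a macrophage marker mean of 2.54, below the next FH mouse at 3.04.

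For 10 genes chosen by the smallest adjusted p each way, the sex difference itself differed between locked and running mice by the interaction in limma over 56 mice. Lower in locked than in running comparisons were Phkg1 (-0.58), Ppargc1b (-0.74), Helz (-0.62), Camk2b (-0.70) and the long non-coding RNA Gm43598 (-2.48, with 57 counts over FH and 199 over MH mice). Higher were 1810022K09Rik (0.70), Cygb (0.60), Frmd8 (1.13) and Mme (0.99), the membrane endopeptidase neprilysin. Ins1, an insulin gene of pancreatic islets, was also among them at 6.01 on the fitted log2 scale, but it had 1 count over the 7 FH mice and 4 over the 7 MH mice, so the fitted value rests on the running mice and gives no size.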

How the results depend on the processing

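The count of autosomal genes called between FH and MH mice, 2258, lay between 1675 (fitting the 14 mice alone) and 2770 (sample quality weights) over the other tests, scalings, filters and sample sets. It moved further in 5 settings: 903 with a 1.5-fold threshold, 288 with adipocyte markers as a covariate, 270 with adipocyte and hepatocyte markers, 812 with the length score and 103 with fibroblast markers. Each covariate differs between the sexes itself; the cause of the lower counts was not tested. Leaving out 1 mouse gave 1838 to 2638. The interaction of sex and genotype was 0 in every setting. That of sex and wheel, 185, was 317 with sample quality weights and 109 (without MH mouse 8) to 299 (without FH mouse 34) with 1 mouse left out, and 157 to 188 with edgeR, no filter and upper-quartile factors.

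Of 183 named genes called, 157 were called in all 28 fits without 1 mouse. Of the others, Lep was called in 8 of 28 such fits, Gys1 in 19, Tnnt3 in 20, Atp5a1 in 21, Zfp36l1 in 25, Ache, Cacna1s, Prkaa1 and Tcap in 26, Cs in 27 (lost without MH mouse 23) and Hbb-bs and Hbb-bt in 27 (lost without FH mouse 19). Elovl3 passed in each of the 23 fits in which it was tested; the filter on low counts left it out of the other 5. Fitting the 14 mice alone, edgeR or DESeq2 moved 39 results below and 5 above the threshold, and none changed sign; Lep lost its call by edgeR and DESeq2, Chrne and Cs by edgeR, and Tnnt1 and Car3 with the 14 mice alone. Depth limits genes of few counts: Cyp4a12a, Slc15a5 and Elovl3 had 0, 3 and 6 counts over the 7 FH mice.

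FH and MH share no mouse number, so pairing of these groups was not possible; a replicate block on mouse number, which links mice of other groups by number alone, had a consensus correlation of 0.07 and gave 2243 genes (1104 higher, 1139 lower), 0 for sex and genotype, and 185 (86 higher, 99 lower) for sex and wheel.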
